A study of Mus musculus with 25 samples.

Results

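Sperm RNA of the second generation of a DEHP-exposed C57BL/6J lineage (C57.D300.F2) was compared with sperm RNA of first-generation C57BL/6J males whose mothers received corn oil (C57.CTL.F1). A gene entered the comparison if its estimate had succeeded in both conditions and it had at least 10 estimated fragments in 1 of them, which held for 17114 of 24358 genes. The comparison rests on 10 of the 25 libraries of the series, 5 for each condition.

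Sperm came from the cauda epididymis of males aged 14 weeks, and all RNA classes were sequenced in the same libraries. Pregnant C57BL/6J females were dosed by mouth from embryonic day 9 to 19, with the phthalate plasticizer DEHP at 300 mg/kg/day for the D300 lineage and with the corn oil vehicle for C57.CTL.F1. The second generation was sired by exposed first-generation males mated with unexposed females, so C57.D300.F2 males were not dosed as fetuses. The paper states that the dosing window, which their fathers went through, includes germ cell migration and gonadal differentiation. The remaining conditions, named here only for their values, were C57.D300.F1 and the FVB/N males of the first generation after vehicle (FVB.CTL.F1) or DEHP (FVB.D300.F1).

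Re-analysis of earlier libraries is marked in the labels for 10 libraries, those of both first-generation C57BL/6J conditions, and for none of the 15 others. C57.D300.F2 and C57.CTL.F1 therefore differ in lineage exposure, in generation and in library set, and none of the 5 conditions is a second generation after vehicle. These differences cannot be told apart in the values below. The table holds 1 value per gene and condition, so no difference has a replicate check, and neither a p-value nor a spread between libraries is given. Where 2 counts are given for a gene below, the first is that of C57.CTL.F1 and the second that of C57.D300.F2. Counts given for the 3 other conditions follow the order C57.D300.F1, then FVB.CTL.F1, then FVB.D300.F1.

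Mature sperm are nearly silent in transcription, and their RNA is a mixture of transcripts left from spermatids, small RNAs and fragments, part of which is taken up from the epididymis. Protamines replace histones in the condensing sperm nucleus, and dense fibers and a fibrous sheath surround the tail. A preparation from the cauda can also hold RNA of the duct epithelium, of blood and of fluids of the accessory glands, such as the seminal vesicle. In such bulk samples, fewer cells of a type and less RNA per cell cannot be told apart.

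Among the 17114 genes tested, 100 were higher in C57.D300.F2 by at least 2 log2 units (0.584%), a 4-fold difference with 1 added to each count, and 617 were lower by as much (3.61%). The genes that fell were led by secretory proteins of the seminal vesicle and by proteins that the liver makes, and those that rose by Akr1b7, an aldose reductase relative known from the vas deferens, and by a set of mostly low-count genes. Of all genes tested, 14673 (85.7%) lay within 1 log2 unit of equality. The median log2 ratio over all genes tested was -0.04, and the middle 90% of the genes, from the 5th to the 95th percentile, lay between -1.54 and 0.92. The lower tail was the longer one, with the 1st percentile at -4.77 and the 99th at 1.68. Scaling both conditions to equal totals moved this median up by 0.29 and scaling by the upper quartile moved it up by 0.22, so the ratios below are read against the median of all genes.

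**Figure D1:**
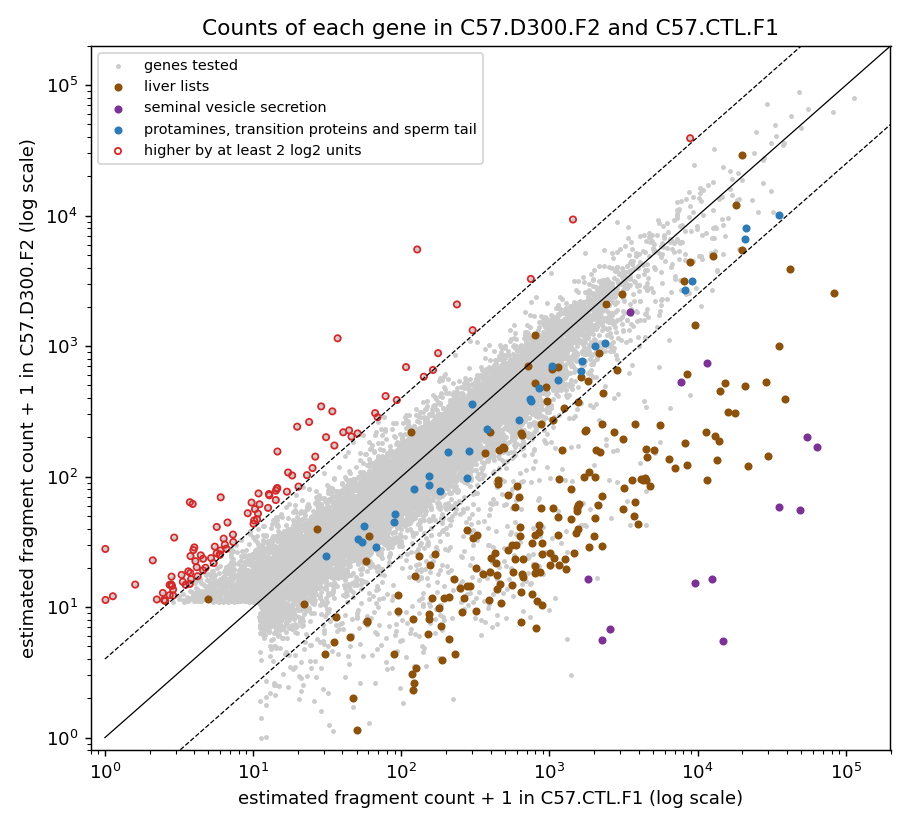
Estimated fragment count plus 1 of each gene tested in C57.CTL.F1 (horizontal, log scale) and C57.D300.F2 (vertical, log scale), with the solid line at equality and the dashed lines 4-fold away from it. The liver and seminal vesicle lists lie mostly below the lower dashed line, the protamine, transition protein and sperm tail genes lie between the lines, and the 100 genes that rose are ringed.

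The size of the counts differed between both sets of changed genes. The genes that fell had a median count of 327 in C57.CTL.F1, against 19.9 in C57.D300.F2, and the genes that rose went from a median of 6.33 to 45.7. At least 100 counts in the higher condition were found for 483 of the 617 genes that fell and for 31 of the 100 that rose. The genes that fell held 13.9% of the summed count of C57.CTL.F1 and 0.740% of that of C57.D300.F2. Their share of the total was 9.54% in C57.D300.F1, and 0.517% and 0.514% in the vehicle and DEHP conditions of FVB/N. The rule that picked these genes sets the order of the values of C57.CTL.F1 and C57.D300.F2, and leaves those of the 3 other conditions free.

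These 3 conditions were also compared gene by gene, without use of either condition that picked the genes. Both FVB/N conditions lay below C57.D300.F1 for 593 of the 617 genes that fell (96.1%), against 49.0% of the 17103 genes tested that have estimates in all of these conditions. For the 100 genes that rose, both FVB/N conditions lay above C57.D300.F1 in 66 (66%), against 40.9% of all genes tested. FVB/N and C57.D300.F1 differ in strain as well as in library set, which cannot be told apart either.

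The share of genes that fell increased with their count. Of the genes whose larger count was between 10 and 30, 1.78% fell and 1.59% rose. Between 300 and 1000 counts, 4.19% fell and 0.224% rose. At 10000 counts and over, 26 of 109 genes fell (23.9%) and 1 rose, Adarb2.

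**Figure D2:**
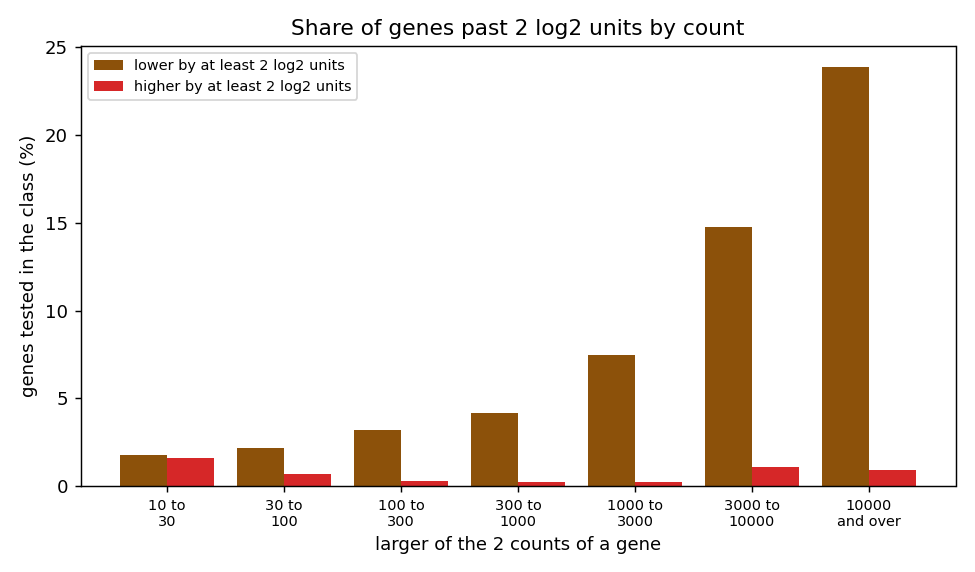
Percent of the genes tested in each class of count, by the larger of the 2 counts of a gene, that were lower or higher in C57.D300.F2 by at least 2 log2 units. The share that fell goes from 1.78% in the lowest class to 23.9% in the highest, which holds 109 genes.

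Cuffdiff's own model gives a variance for each count, and the square root of the summed variances of both counts is called here the model SD of a difference. The difference exceeded its model SD for 90 of the 100 genes that rose (0.526% of the genes tested) and for 578 of the 617 that fell (3.38%). The 4-fold rule already picks large differences, so most called genes pass 1 model SD by that rule. Here and in the lists below, such passes are therefore no separate check, and the genes that do not pass are the ones to read with care. Just inside the threshold among genes with at least 100 counts lay Muc4 (log2 ratio 2.01) and Kif5c (2.04) on the upper side and Mir99b (-2.01) and Mrap (-2.01) on the lower. Just outside it lay Gcnt1 (1.97), Cd109 (1.92), 4933411K16Rik (-1.999) and 4933402J07Rik (-1.995).

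The label of the samples was checked against 3 sperm genes, which were present in both conditions. Prm1 and Prm2, the protamines of the sperm nucleus, had 1038 and 20903 counts in C57.CTL.F1, against 707 and 6651 in C57.D300.F2. Odf1, a main protein of the outer dense fibers, had 21227 and 7981 counts. All 3 were thus found at 707 counts or more in both conditions, each with the smaller value in C57.D300.F2.

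The largest falls were those of the seminal vesicle. Of the 14 genes listed for its secretion, 13 were tested and 12 fell, with a median log2 ratio of -8.56 against -0.04 over all genes. Their summed count went from 268515 in C57.CTL.F1 to 3639 in C57.D300.F2, and from 204998 to 3471 without Svs4, the most abundant of them. The sum was 2632 in C57.D300.F1, and 5678 and 5893 in FVB/N after vehicle and DEHP. Ceacam10, the member that did not fall past the threshold, made up at least 50% of the sum in each condition except C57.CTL.F1, and each of the 12 genes that fell had its highest value in C57.CTL.F1.

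Svs2, the main structural protein of the copulatory plug at chr2:164235929-164238466, had 54433 and 201 counts (log2 ratio -8.07). Its counts in the 3 other conditions were 11.2, 72.1 and 45.0. Svs4 (chr2:164275952-164278459), a small secreted protein from the same gene cluster, had 63518 and 168 counts (log2 ratio -8.55). Svs5 (chr2:164332740-164334396) went from 48670.3 to 54.2 (log2 ratio -9.78) and Svs6 from 12518 to 15.5 (log2 ratio -9.57). Svs3a and Svs3b, close copies of each other among which fragments may have been split, went from 2248 to 4.62 (log2 ratio -8.65) and from 2559.9 to 5.77 (log2 ratio -8.56). Each of these Svs genes was under 30 counts in C57.D300.F1.

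Pate4, a small secreted protein of the seminal vesicle, fell from 35622 to 57.1 (log2 ratio -9.26), and Sva, the seminal vesicle antigen, from 9590.2 to 14.3 (log2 ratio -9.29). Spink1, a secreted trypsin inhibitor, showed the largest fall of all, from 14805 to 4.49 (log2 ratio -11.40), and was listed at 0 in C57.D300.F1. The uncharacterised A630095E13Rik, in none of the seminal vesicle genes listed, had 1387 counts in C57.CTL.F1, against 2.00 in C57.D300.F2. The member that did not pass the threshold was Ceacam10, a secreted glycoprotein, with 3514 and 1819.7 counts (log2 ratio -0.95).

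The model SD was wide for this group. For Svs2 it came to 7.51 times the count in C57.CTL.F1, for Svs4 to 7.43 times, for Svs5 to 7.52 times and for Pate4 to 7.04 times. In C57.D300.F2 it was 0.284 times the count of Svs2. The difference exceeded its model SD in 3 of the 12 genes that fell. Whether these transcripts were evenly spread over the 5 libraries of C57.CTL.F1 was not tested.

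**Figure D3:**
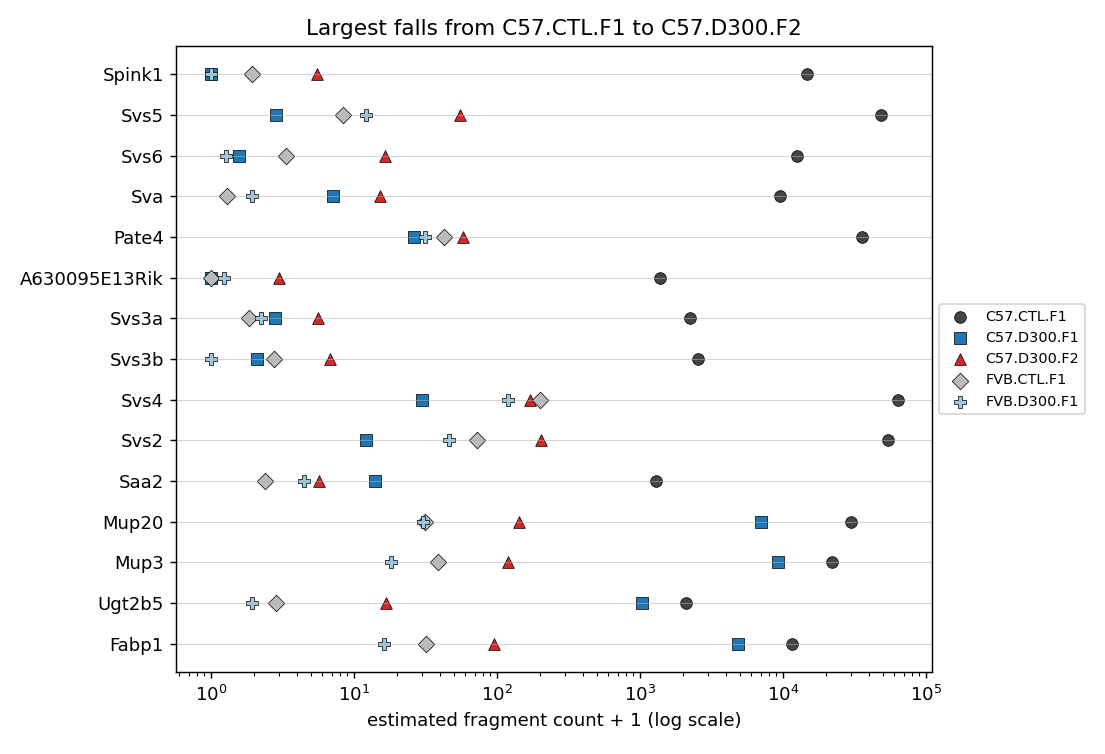
Estimated fragment count plus 1 (log scale) of the 15 genes with the largest falls among those with at least 100 counts in C57.CTL.F1, in each of the 5 conditions. The seminal vesicle genes are high in C57.CTL.F1 alone, while Mup20, Mup3, Ugt2b5 and Fabp1 are high in C57.CTL.F1 and C57.D300.F1 and low in the rest.

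The genes that the liver makes formed the broadest group of falls. The 12 liver lists together held 226 genes, of which 197 were tested, 163 fell and none rose, with a median log2 ratio of -4.34. Their summed count, over members with an estimate in every condition, was 755117 in C57.CTL.F1, against 95266 in C57.D300.F2. It was 607307 in C57.D300.F1, and 86319 and 90474 in FVB/N after vehicle and DEHP. Unlike that of the seminal vesicle list, this sum was high in both re-analysed conditions. The part that RNA of liver origin has in the difference was not tested.

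Proteins that carry metals, hormones and vitamins in plasma fell in 17 of 18 cases (median -4.40). Albumin, Alb, the most abundant of them, went from 83529 to 2559 (log2 ratio -5.03), and had 100464, 524 and 349 counts in the 3 other conditions. Transthyretin, Ttr, which carries thyroid hormone and retinol-binding protein, went from 38822 to 394 (log2 ratio -6.62). Transferrin, Trf, which carries iron, went from 41712 to 3936 (log2 ratio -3.41), and the vitamin D carrier Gc from 15936 to 309.9 (log2 ratio -5.68). Ceruloplasmin, Cp, the copper-binding member, did not pass the threshold, with 12749.9 and 4934 counts (log2 ratio -1.37). Without Alb, the summed count of the list went from 140362 to 11019. The difference exceeded its model SD in 14 of the 17 genes that fell, and did not for Alb, Ttr and Trf.

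Of the 13 apolipoproteins, 12 fell (median -5.01). Apob, the structural protein of very-low-density lipoprotein, went from 35205 to 1002 (log2 ratio -5.13). Apoa1 and Apoa2, the main proteins of high-density lipoprotein, went from 14035 to 453 (log2 ratio -4.95) and from 17934 to 305 (log2 ratio -5.87). The largest fall in this list was that of Apom, from 895 to 9.45 (log2 ratio -6.42). Apoe, which many cell types besides hepatocytes make, had 19785 and 5488 counts (log2 ratio -1.85) and did not pass the threshold. Of the 12 genes that fell, 10 had a difference over its model SD, and Apob and Apoa2 did not.

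The major urinary proteins, pheromone carriers that the liver secretes in males, were mostly not estimated. Of 20 genes in the table, 12 had a failed estimate in C57.CTL.F1 and none in C57.D300.F2, and 5 were tested. All 5 fell, with a median of -6.87, or -5.01 with no minimum count and -5.69 with 10 added. Mup20, known as darcin, went from 30005 to 142 (log2 ratio -7.71) at chr4:62050234-62054158, and Mup3 from 21889 to 119 (log2 ratio -7.51). In C57.D300.F1 these had 6973 and 9264 counts. The difference exceeded its model SD in 4 of the 5 genes that fell, and did not for Mup20. The genes of this family are near-identical copies, so the division of fragments among them is uncertain.

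Protease inhibitors of the Serpina1 and Serpina3 families fell in 7 of 13 tested cases (median -3.79, 17 genes in the table). This median was -1.36 with no minimum count, -2.50 with equal totals, -2.57 with the upper quartile and -5.63 with at least 100 counts. Serpina3k went from 13979.7 to 186 (log2 ratio -6.22) and Serpina1e, a close copy of the other liver Serpina1 genes, from 12996 to 204 (log2 ratio -5.99). Serpina1f, a member known from the epididymis, was among the 6 that did not fall, with 19979.9 and 29148 counts (log2 ratio 0.54). It was the most abundant gene of the list, and its counts in the 3 other conditions were 21452, 37547 and 37041. Without Serpina1f, the summed count of the list went from 34949.5 to 859.

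All 21 genes of coagulation and fibrinolysis fell, between -3.32 and -5.91 (median -4.94), and each difference exceeded its model SD. The 3 fibrinogen chains, the precursors of the fibrin clot, went from 15192 to 523 (log2 ratio -4.86) for Fga, from 11418 to 218 (log2 ratio -5.70) for Fgb and from 28951 to 528 (log2 ratio -5.77) for Fgg. Antithrombin, Serpinc1, an inhibitor of thrombin, went from 4782 to 84.5 (log2 ratio -5.81). The smallest fall was that of Klkb1, plasma kallikrein, from 581 to 57.2 (log2 ratio -3.32).

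Complement genes, which act in innate immunity, fell in 13 of 17 cases (median -2.95). Mbl1, a mannose-binding lectin, went from 636 to 6.71 (log2 ratio -6.37) and C9, a part of the membrane attack complex, from 3141 to 55.7 (log2 ratio -5.79). C3, the central component, did not pass the threshold, with 18109 and 12174 counts (log2 ratio -0.57). Neither did C4b and C2, with log2 ratios of -1.27 and -0.03.

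Genes of liver metabolism fell as well. Bile acid synthesis and transport had 14 of 15 genes lower (median -4.33), among them Slco1b2, an uptake transporter of hepatocytes, from 3780.4 to 62.4 (log2 ratio -5.90), and Abcb11, the bile salt export pump, from 2040.2 to 47.0 (log2 ratio -5.41). Amino acid catabolism and the urea cycle had 24 of 27 lower (median -4.31), among them Cps1, the entry enzyme of the urea cycle, from 20854 to 490.0 (log2 ratio -5.41), and Bhmt, which methylates homocysteine, from 8405 to 121 (log2 ratio -6.10). Cbs, an enzyme of transsulfuration that is also active outside the liver, had 3076 and 2518 counts (log2 ratio -0.29).

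Cytochrome P450 enzymes of drug and steroid metabolism fell in 21 of 22 tested cases (median -5.27). The median was -5.15 with values under 3 counts set to 3, -4.63 with no minimum count and -4.17 with 10 added. Cyp3a11, a main drug-metabolising enzyme of mouse liver, went from 13468 to 133 (log2 ratio -6.65) and Cyp2e1, which oxidises ethanol, from 8452 to 612 (log2 ratio -3.79). Gluconeogenesis, fructose and glycogen genes fell in 9 of 11 cases (median -4.12), among them Pck1, an enzyme that commits carbon to glucose synthesis, from 4529 to 139.6 (log2 ratio -5.01).

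Fatty acid oxidation and ketone synthesis was a mixed list as well. Of its 20 genes 9 fell, and the median was -1.81. Fabp1, the fatty acid binding protein of liver, went from 11513 to 93.7 (log2 ratio -6.93). Acsl1, an acyl-CoA synthetase of many tissues, had 8819 and 4449 counts (log2 ratio -0.99), and Cyp4a12a had 793 and 1215 counts (log2 ratio 0.62).

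Transcription factors of hepatocytes fell in 11 of 15 cases (median -2.83). Hnf4a, a nuclear receptor that many liver genes depend on, went from 555 to 28.7 (log2 ratio -4.23), and Foxa3, a forkhead factor, from 88.2 to 3.41 (log2 ratio -4.34). Foxa1, a relative of Foxa3 that is also made in the epididymis, had 115 and 219 counts (log2 ratio 0.93). Tbx3, the most abundant of the list, had 2423 and 2086 counts (log2 ratio -0.22).

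Markers of the other liver cell types gave mixed values, where 3.61% of all genes tested fell. Of 6 Kupffer cell genes 4 fell (median -2.77), with Clec4f, a lectin of these macrophages, going from 263 to 8.75 (log2 ratio -4.76), while the general macrophage gene Adgre1 had 448 and 291 counts (log2 ratio -0.62). Of 6 genes of sinusoidal endothelium 3 fell (median -1.47, or -0.13 with at least 100 counts). Clec4g went from 167 to 5.33 (log2 ratio -4.73), and Stab1 had 562 and 719.9 counts (log2 ratio 0.36). Of 5 bile duct genes 1 fell, Spp1, from 137 to 4.05 (log2 ratio -4.77), and the keratin Krt19 had 2346 and 3044 counts (log2 ratio 0.38). The bile duct median was 0.24. Krt19 and the other keratins are also made by the duct epithelium of the epididymis.

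Promoters are shown for 3 liver genes that fell, while the shares below cover all genes that fell, inside or outside the liver lists. RefSeq sequences on GRCm38.p6 were searched over the 250 bases before each start, on both strands, for 10 short motifs. The letters GTTAATNAT, known for the factor HNF1, were found in 0.737% of all 32851 promoters. By gene, only genes with a promoter among these were counted. The letters were found for 28 of the 448 that fell (6.25%), 1 of the 71 that rose (1.41%) and 89 of the 12662 tested (0.703%). Of those that fell, 125 were in the liver lists, and 11 of these held the letters (8.80%). The 3 such genes that fell from the largest counts were Alb, Gc and Fga, whose 250 bases follow 5′ to 3′ with the matched letters, on either strand, in capitals. They lie at chr5:90460620-90460869 on the plus strand, chr5:89457899-89458148 on the minus strand and chr3:83025903-83026152 on the plus strand, and the match starts 32, 52 and 46 bases before the start of transcription.
Alb: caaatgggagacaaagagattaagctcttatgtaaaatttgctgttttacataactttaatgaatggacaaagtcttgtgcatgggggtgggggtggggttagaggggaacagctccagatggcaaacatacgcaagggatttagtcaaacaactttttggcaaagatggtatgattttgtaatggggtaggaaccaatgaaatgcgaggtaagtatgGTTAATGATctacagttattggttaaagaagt
Gc: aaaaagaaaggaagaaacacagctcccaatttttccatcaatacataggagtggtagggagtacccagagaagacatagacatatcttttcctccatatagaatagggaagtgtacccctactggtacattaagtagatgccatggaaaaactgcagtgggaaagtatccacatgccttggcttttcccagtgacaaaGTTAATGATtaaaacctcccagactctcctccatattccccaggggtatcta
Fga: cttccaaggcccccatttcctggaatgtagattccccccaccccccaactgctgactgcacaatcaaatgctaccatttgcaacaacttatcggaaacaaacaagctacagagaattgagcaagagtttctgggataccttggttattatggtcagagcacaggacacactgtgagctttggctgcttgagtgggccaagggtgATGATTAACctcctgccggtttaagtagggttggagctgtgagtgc

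In Alb and Gc the match reads in the direction of the gene, and in Fga it is the reverse complement. The other motifs were counted in the same way, and each match is a description of letters alone. TTGCNNAA, known for C/EBP factors, was found for 21.7% of the genes that fell and 9.70% of those tested. CAAAGTCCA, known for HNF4, was found for 2.46% and 0.505%. TGTTTAC and TGTTTGC, known for forkhead factors and 1 letter apart, were found for 6.25% and 11.2% of the genes that fell, against 2.84% and 4.20% of those tested. TATAAA was found for 22.5% against 9.18%, and TGACCT, a part of many nuclear receptor sites, for 25.4% against 14.5%. CCGGAAG, known for ETS factors and common at widely active promoters, was found for 2.46% of the genes that fell and 12.8% of those tested. For the 71 genes that rose, the shares were 1.41% for CCGGAAG, 19.7% for TATAAA, 19.7% for TGACCT, 12.7% for TTGCNNAA, 2.82% for TGTTTAC and 4.23% for TGTTTGC, with no match of CAAAGTCCA. None of these differences in share was tested. AGAACA and TGT parted by 3 bases of any kind, letters known for steroid receptors, were found for none of the genes that rose and for 2 of the 448 genes that fell (0.446% against 0.316%), and the related letters GGTACA and TGTTCT, also parted by 3 bases, in no promoter at all. Over all promoters, the shares were 9.56% for TTGCNNAA, 0.384% for CAAAGTCCA, 3.17% for TGTTTAC, 4.30% for TGTTTGC, 12.4% for TATAAA, 14.0% for TGACCT, 6.91% for CCGGAAG and 0.368% for the steroid receptor letters.

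**Figure D4:**
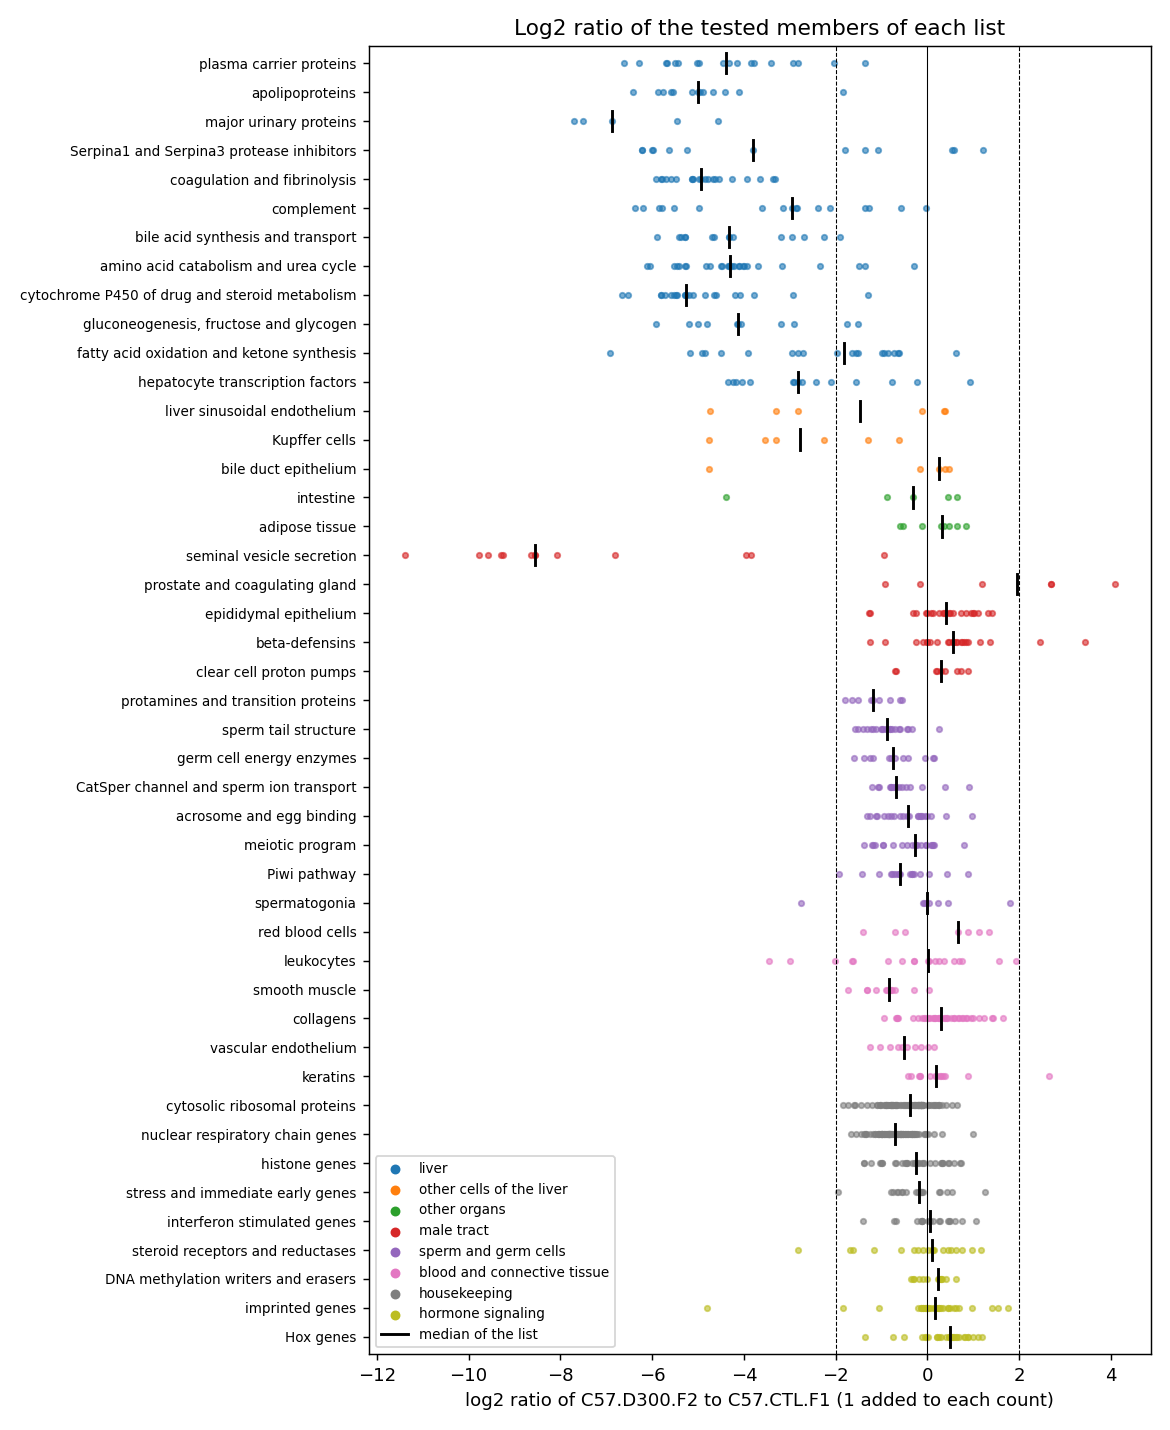
Log2 ratio of C57.D300.F2 to C57.CTL.F1, with 1 added to each count, for each tested member (point) of the lists with at least 5 tested members, with a black bar at the median of each list and dashed lines at the threshold of 2 log2 units. Most liver and seminal vesicle points lie left of the lower threshold, and most points of the sperm, tract and housekeeping lists lie between both thresholds.

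Of 10 genes of the exocrine pancreas 3 were tested and 2 fell, Cela2a and Cpb1, both from under 20 counts. Both fell short of the threshold with 10 added (-0.93 and -1.42). Cela2a also did so with values under 3 counts set to 3 (-1.60), and its difference was smaller than its model SD. Of 8 intestinal genes 5 were tested and 1 fell, Fabp2, from 181 to 7.70 (log2 ratio -4.39). None of the 8 genes of adipose tissue passed the threshold (median 0.33). The share that fell was 3.61% over all genes tested.

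The rising genes were led by Akr1b7, which went from 127 to 5508 (log2 ratio 5.43) and lies at chr6:34412334-34423142. Its counts in the 3 other conditions were 98.8, 14293 and 5954, so it was low in both re-analysed conditions and high in the 3 others. Next came 9530053A07Rik, from 36.2 to 1148 (log2 ratio 4.95), with 4.08, 15.7 and 311 counts in the same 3 conditions. The model SD of its count in C57.D300.F2 was 0.963 times the count.

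Where 0.584% of all genes tested rose, prostate and coagulating gland genes rose in 3 of 6 tested cases (9 in the table, median 1.95). The median was 0.54 with no minimum count and 1.02 with 10 added to each count, and 2 of the 3 genes, Pbsn and 9530002B09Rik, reached the minimum in C57.D300.F2 only. Probasin, Pbsn, a secretory protein of the prostate, had 2.74 and 62.7 counts, and 0.280, 0.559 and 18.4 in the 3 other conditions. Tgm4, the transglutaminase that cross-links the copulatory plug, went from 30.1 to 199.6 (log2 ratio 2.69), and 9530002B09Rik had 2.78 and 23.6 counts. The summed count of the list was 7248 and 6763, nearly all of it from Spink5, a protease inhibitor that is also made elsewhere, and without Spink5 it went from 62.1 to 313. Each of the 3 genes that rose had its highest value of the 5 conditions in C57.D300.F2.

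Acsl6, an acyl-CoA synthetase known from brain and germ cells, went from 1439.7 to 9346 (log2 ratio 2.70) at chr11:54303798-54364756, with 1992, 4677 and 5768 counts in the 3 other conditions. Adarb2, a relative of the RNA-editing enzymes at chr13:8202866-8768747, was the most abundant gene that rose, from 8892 to 39224 (log2 ratio 2.14), and had 14254, 4214 and 5339 counts in those 3 conditions. Ptgs2, the inducible enzyme of prostaglandin synthesis, went from 748 to 3276 (log2 ratio 2.13), with 356, 10401 and 3227 counts there. Adarb2 was thus highest in C57.D300.F2, while Ptgs2 was highest in FVB.CTL.F1.

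Kcnj16, Kcnk18, Htr5b and Htr5a were also among the 15 largest rises. The potassium channels Kcnj16 and Kcnk18 went from 13.6 to 155 (log2 ratio 3.42) and from 107 to 690.0 (log2 ratio 2.68). They were the only 2 of 68 tested genes that rose in the potassium channel list, which was added after the values were seen. For comparison, 0.584% of all genes tested rose. The serotonin receptors Htr5b and Htr5a went from 33.3 to 316 (log2 ratio 3.21) and from 25.3 to 141 (log2 ratio 2.44). Htr5a and Htr5b were highest in C57.D300.F2, whereas Kcnj16 reached 552 counts in FVB.CTL.F1.

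Other large rises were those of the predicted gene Gm12830, from 236 to 2088 (log2 ratio 3.14), of Krt4, a keratin of stratified epithelium, from 16.2 to 107 (log2 ratio 2.64), and of the olfactory receptor gene Olfr851, from 39.6 to 218 (log2 ratio 2.43). BC048679 went from 17.4 to 101 (log2 ratio 2.48), 2300002M23Rik from 18.8 to 240.5 (log2 ratio 3.61) and the long noncoding RNA gene 4930528G23Rik from 27.8 to 344 (log2 ratio 3.58). LOC432842 went from 22.9 to 261 (log2 ratio 3.46). For all of these except 2300002M23Rik, both FVB/N values were over 3 times the value of C57.CTL.F1, and 2300002M23Rik had 7.91 and 23.8 counts in FVB/N.

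**Figure D5:**
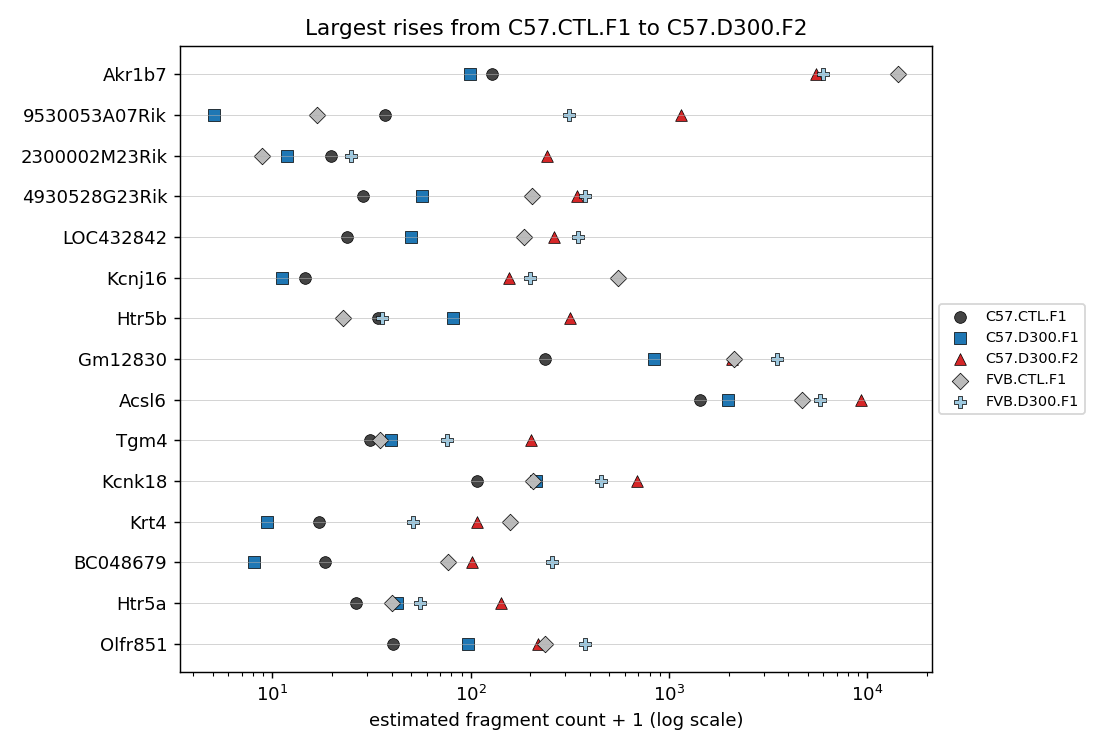
Estimated fragment count plus 1 (log scale) of the 15 genes with the largest rises among those with at least 100 counts in C57.D300.F2, in each of the 5 conditions. C57.CTL.F1 and C57.D300.F1 lie below C57.D300.F2 for all 15, and the FVB/N values lie on either side of it.

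Genes of the epididymal epithelium did not pass the threshold. Of 35 genes listed, 23 were tested, 17 with a ratio above 0, and the median was 0.40. Over the 34 with an estimate in every condition, the summed count was 53489 in C57.CTL.F1, against 82334 in C57.D300.F2. Clusterin, Clu, a secreted chaperone that coats sperm, had 12898 and 32443 counts (log2 ratio 1.33). Adam7, a membrane protein that the epididymis transfers to sperm, had 23918 and 30429 counts (log2 ratio 0.35). Crisp1, a secreted protein of the duct, had a failed estimate in C57.D300.F2 and gives no ratio.

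Where 0.584% of all genes tested rose, beta-defensins, antimicrobial peptides that coat maturing sperm, rose in 2 of 24 tested cases (42 in the table, median 0.56). The summed count of the list was 24143.5 in C57.CTL.F1, against 23237 in C57.D300.F2. Defb22, which is part of the sperm glycocalyx, went from 13.2 to 77.1 (log2 ratio 2.46) and had 457 and 778 counts in FVB.CTL.F1 and FVB.D300.F1. Defb23 had 1.10 and 21.8 counts, and 48.3 and 847 in FVB/N. It reached the minimum count in C57.D300.F2 only, and had a log2 ratio of 1.52 with 10 added to each count. Defb28, the most abundant, had 17158 and 14345 counts (log2 ratio -0.26). None of the 9 proton pump genes of clear cells, which acidify the duct, passed the threshold (median 0.30).

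No gene of the protamine and sperm tail lists passed the threshold. The 9 genes of the protamine list, which also holds transition proteins, spermatid histones, Smcp and Gsg1, all lay below 0, with a median of -1.18, and of 22 sperm tail genes 21 did (median -0.88). With totals made equal the medians were -0.88 and -0.59, while the median of all genes was 0.25. Prm2 had a log2 ratio of -1.65, Prm1 -0.55 and Tnp1, a transition protein, -1.05. Smcp, a mitochondrial capsule protein and the most abundant of the list, had 35149 and 10099 counts (log2 ratio -1.80). The tail proteins Odf1, Odf2 and Akap4, the last a main protein of the fibrous sheath, had log2 ratios of -1.41, -1.59 and -1.01.

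The summed count of the 9 genes of the protamine list went from 61928 to 19744, and was 49075, 4144 and 4999 in the 3 other conditions. The sum of the tail genes went from 47931 to 18722, and was 43902, 5641 and 6561 in the others. C57.D300.F2 thus lay between the re-analysed conditions and FVB/N for both.

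Other lists of germ cells passed the threshold in 1 gene. Germ cell isoforms of energy enzymes had a median of -0.75 over 12 genes, with Pgk2 at -1.38 and Gapdhs at -1.19. The CatSper calcium channel of the tail and other ion transport genes had a median of -0.69 over 16 genes, and genes of the acrosome and of egg binding -0.42 over 22. The Piwi pathway, which silences transposons in germ cells, had a median of -0.60 over 18 genes, with Gtsf1 at -1.92 and Ddx4 at -1.42. The meiotic program had a median of -0.26 over 21 genes, which became 0.04 with equal totals. Of 8 tested spermatogonial genes 1 fell, the receptor gene Gfra1, from 411 to 60.2 (log2 ratio -2.75), which had 847 counts in FVB.D300.F1. The share that fell was 3.61% over all genes tested.

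Testis somatic cells gave few counts. Of 11 Sertoli cell genes 3 were tested, Wt1 (log2 ratio 0.72), Cldn11 (0.73) and Gata4 (-1.52), and of 8 Leydig cell genes 3, Star (0.44), Cyp17a1 (0.97) and Insl3 (1.05). None passed the threshold.

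Over all genes tested 3.61% fell, and in blood and connective tissue 3 of 19 tested leukocyte genes did. Among them the B cell genes Ms4a1 and Cd79a went from 139 to 11.8 (log2 ratio -3.45) and from 28.6 to 6.29 (log2 ratio -2.02). The median of the list was 0.01, with 10 genes above 0 and 9 below, and the pan-leukocyte gene Ptprc had a log2 ratio of -0.29. The largest rise in the list, S100a8, went from 68.8 to 263 (log2 ratio 1.92) and did not pass the threshold. Of the members with the largest counts, Lyz2 had a log2 ratio of -1.65, Cd74 0.26, Csf1r 0.03 and H2-Ab1 0.17. With equal totals, and also with the upper quartile, 2 leukocyte genes fell and 1 rose. None of 7 red blood cell genes (median 0.67), 12 smooth muscle genes (-0.84), 41 collagens (0.29) or 10 genes of vascular endothelium (-0.51) passed the threshold. The smooth muscle actin Acta2 had 7041 and 3258 counts (log2 ratio -1.11), and Col1a1, a chain of the main fibrillar collagen, 8376 and 13447 counts (log2 ratio 0.68). Of 14 tested keratins 1 rose, Krt4, where 0.584% of all genes tested did, and the median of the keratins was 0.20.

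Housekeeping lists had no gene past the threshold. The 85 tested ribosomal protein genes had a median of -0.37 and the 80 nuclear genes of the respiratory chain -0.70. With equal totals these were -0.09 and -0.40. Histone genes (34 tested) had a median of -0.25, stress and immediate early genes (20) -0.17 and interferon stimulated genes (19) 0.05. With equal totals, the histone and stress medians were 0.06 and 0.12.

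Of 19 tested genes of steroid receptors, related receptors and reductases 1 fell (5.26%, against 3.61% of all genes). It was Ppara, a nuclear receptor already counted among the hepatocyte transcription factors, from 607 to 84.5 (log2 ratio -2.83). It had 789, 67.3 and 50.5 counts in the 3 other conditions. The estrogen receptor gene Esr1 had 539 and 767 counts (log2 ratio 0.51). The median of the list was 0.09. None of 14 DNA methylation genes (median 0.24) or 29 Hox genes (0.50) passed the threshold. Of 32 tested imprinted genes 1 fell, Ddc, which makes dopamine and serotonin, from 304 to 9.95 (log2 ratio -4.80), with a list median of 0.17. Here too 3.61% of all genes fell, and with equal totals 1 imprinted gene also rose.

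MicroRNA genes are shown with their sequences because several carry related seeds, the bases 2 to 8 by which a microRNA pairs with its targets. Of 1163 such genes, 132 were tested, 3 rose and 11 fell, with a median log2 ratio of 0.49. Over all genes tested, 0.584% rose and 3.61% fell. The balance depended on the scaling, as 11 rose and 8 fell with equal totals, and 8 rose and 8 fell with the upper quartile. RefSeq on GRCm38.p6 held mature forms for 116 of the 132 and for 12 of the 14 that changed. The values are counts of the gene, in which both arms of the hairpin and any longer transcript over it are not separated. The mature 5p forms of 5 genes, in RNA letters with the seed in capitals, are the following, first the 3 with the seed ACCCGUA and then the 2 with ACCCUGU.
mmu-miR-99a-5p: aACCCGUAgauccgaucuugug
mmu-miR-99b-5p: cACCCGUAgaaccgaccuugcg
mmu-miR-100-5p: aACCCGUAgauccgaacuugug
mmu-miR-10a-5p: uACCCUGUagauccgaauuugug
mmu-miR-10b-5p: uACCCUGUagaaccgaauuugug

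Mir100 (mature form at chr9:41531437-41531458, plus strand) fell from 395 to 55.2 (log2 ratio -2.82) and Mir99b (chr17:17830194-17830215, plus strand) from 1045 to 259.6 (log2 ratio -2.01). Mir99a, with the same seed at chr16:77598940-77598961 on the plus strand, had 358 and 149 counts (log2 ratio -1.25) and did not pass the threshold. Mir99b lies at the threshold, with a log2 ratio of -1.71 under equal totals. Mir10b (chr2:74726074-74726096, plus strand), the gene with the largest count of all in C57.D300.F2, had 48454 and 88039 counts (log2 ratio 0.86), and Mir10a (chr11:96317186-96317208, plus strand) 31190.4 and 35896 counts (log2 ratio 0.20). In FVB.CTL.F1 and FVB.D300.F1, Mir10b had 5222 and 8195 counts, Mir10a 2909 and 4199, and Mir100 3.16 and 9.90. All 5 genes were lower in both FVB/N conditions than in each C57BL/6J condition.

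The other 10 changed microRNA genes matched to RefSeq do not share these seeds. Their mature forms for Mir192, the largest fall among the genes matched to RefSeq, and for the 3 rises, Mir184, Mir1950 and Mir2137, are given next, again with bases 2 to 8 in capitals.
mmu-miR-192-5p: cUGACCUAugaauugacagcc
mmu-miR-192-3p: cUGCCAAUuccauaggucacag
mmu-miR-184-5p: cCUUAUCAcuuuuccagccagc
mmu-miR-184-3p: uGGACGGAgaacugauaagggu
mmu-miR-1950: uCUGCAUCuaaggauaugguca
mmu-miR-2137: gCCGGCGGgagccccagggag

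Mir192 (miR-192-5p at chr19:6264857-6264877, plus strand), which is abundant in liver and gut, went from 2535 to 93.0 (log2 ratio -4.75) and had 698, 4.23 and 4.83 counts in the 3 other conditions. Mir122, the main microRNA of hepatocytes, had 60.0 counts in C57.CTL.F1, against 0.306 in C57.D300.F2, and Mir5112 had 33.5 and 0.128. Mir741, a gene of an X-linked testis cluster, went from 108 to 6.52 (log2 ratio -3.85) and Mir501 from 41.0 counts to 1.91. Mir126a and Mir126b, which lie over each other on opposite strands inside the endothelial gene Egfl7, went from 20.9 to 3.82 (log2 ratio -2.19) and from 133 to 29.5 (log2 ratio -2.14). Both fell short of the threshold with equal totals (-1.93 for Mir126a and -1.85 for Mir126b), with the upper quartile (-1.99 and -1.92) and with 10 added (-1.16 and -1.86). Mir8114 and Mir7217 fell from under 30 counts, and did not pass the threshold with 10 added (-1.41 and -1.10).

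Mir184 (miR-184-3p at chr9:89802263-89802284, minus strand) rose from 5.72 to 43.5 (log2 ratio 2.73), Mir1950 (chr19:34965402-34965423, plus strand) from 5.60 to 27.0 (log2 ratio 2.09) and Mir2137 (chrX:72992113-72992133, plus strand) from 3.78 to 19.0 (log2 ratio 2.07). All 3 had under 6 counts in C57.CTL.F1 and reached the minimum count in C57.D300.F2 only. They fell short of the threshold with 10 added (1.77 for Mir184, 1.25 for Mir1950 and 1.08 for Mir2137). The difference was smaller than its model SD for Mir2137 and for 4 of the 11 genes that fell, Mir122, Mir501, Mir126a and Mir8114. Between 1 and 2 log2 units, 31 further microRNA genes were higher and 5 lower.

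Of 112 tested small nucleolar and Cajal body RNA genes, which guide the modification of other RNAs, 3 rose, Snord14a (log2 ratio 2.53), Snord53 (2.29) and Snord98 (2.22), and Snora43 fell (-2.51), with a list median of 0.04. Of these 4 differences only that of Snord14a exceeded its model SD, and Snord14a fell short of the threshold with 10 added (1.92). Over all genes tested, 0.584% rose and 3.61% fell. Of 10 tested abundant noncoding RNAs 1 fell, Terc, the RNA of telomerase, from 87.0 to 11.2 (log2 ratio -2.85), and Malat1, a nuclear RNA, had 55387 and 65667 counts (log2 ratio 0.25). The list median was -0.29, or 0.01 with equal totals.

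Among genes tested, 6 were in the first 10 by count of both conditions, and none of these passed the threshold. Lars2, a mitochondrial leucyl-tRNA synthetase, had 114042 and 79428 counts (log2 ratio -0.52), Rnf225, a RING finger gene, 82225 and 62734 counts (log2 ratio -0.39), and Gpx3, a secreted glutathione peroxidase, 49995 and 47313 counts (log2 ratio -0.08). Cuzd1 had 42582 and 57739 counts (log2 ratio 0.44), and the others, Mir10b and Malat1, were given above. Alb, Svs4, Svs2 and Svs5 were among the first 10 in C57.CTL.F1 only. In C57.D300.F2 their places were taken by 1200014J11Rik, with 29332 and 71163 counts (log2 ratio 1.28), Itm2b, 33240.1 and 49890.4 counts (log2 ratio 0.59), Cd52, a glycoprotein that the epididymis transfers to sperm, 24861 and 43515 counts (log2 ratio 0.81), and Snord104, 33771 and 40786 counts (log2 ratio 0.27).

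Large families of uncharacterised or receptor genes were described last. Of 1120 olfactory receptor genes 15 were tested and 6 rose (median 0.98), 5 of them from under 20 counts. Low-count genes enter this list by the condition in which they are high, and its median was 0.33 with no minimum count and -0.05 with at least 100 counts. Of 345 tested zinc finger genes none fell and 1 rose, Zfp91Cntf (0.601 and 13.9 counts), with a list median of 0.05. The difference of Zfp91Cntf was smaller than its model SD. Zfp91Cntf fell short of the threshold with 10 added (1.17) and with values under 3 counts set to 3 (1.90). Predicted Gm genes rose in 8 and fell in 16 of 430 tested cases (median 0.21), and Riken clone genes rose in 12 and fell in 20 of 1125 (0.02), where 0.584% of all genes tested rose and 3.61% fell. With equal totals the direction turned for the Riken clone genes, of which 20 rose and 15 fell, and for the Gm genes 10 rose and 16 fell.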

How the data were processed

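All-RNA libraries from cauda sperm were sequenced by the authors, who clipped the adapter, aligned reads to mm10 with TopHat and ran Cuffdiff (Cufflinks), after base calling with CASAVA 1.8.2 per the labels. The deposited values are a signal, 1 estimated fragment count for each gene and condition over 5 libraries, scaled by Cuffdiff and not divided by length. Versions of TopHat and Cuffdiff and the annotation release are not given in the sources used here. Cuffdiff's deposited model variance of the counts, the other unit, was used only as a model SD. Another 10 columns, which hold parts of that variance, were not used. Counts summed to 8602900 for C57.CTL.F1, 6921688 for C57.D300.F2, 7748902 for C57.D300.F1, 7568129 for FVB.CTL.F1 and 8278486 for FVB.D300.F1.

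Failed estimates (57 genes in either condition) were treated as missing, and 7187 genes had under 10 counts in both. Ratios were log2 with 1 added to each count, called at 2 log2 units. The floor was set at 3 counts and covers counting error only. Sums over a list took members with an estimate in all 5 conditions. No test was possible with 1 value per condition. Members and lists were chosen with earlier results of these data known, and 13 lists, the 10 motifs and 1 alternative were added after the values were seen. Alternatives were pseudocounts of 0.1 and 10, 3 scalings, other minimum counts and thresholds, a floor of 3 and the model SD.

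Genes were named from the 15 largest rises and 15 largest falls where the larger count was at least 100, the 10 largest counts of each condition among genes tested, all changed microRNA genes, the 2 genes nearest to either side of both thresholds (also from 100 counts), and from each list its 4 largest counts, largest rise and largest fall. Not all members under this rule are printed, and other genes were chosen after their values were seen. The ratio and calls were tested on simulated counts with counting error only, without low-count genes. That simulation does not show how the calls behave for low-count genes or for genes with a wide model SD. Gene positions are from GENCODE M21 (GRCm38, matched by symbol for 383 of the 388 genes of this rule), and sequences from RefSeq (GRCm38.p6). Scripts ran under matplotlib 3.10.9, scipy 1.17.1, pandas 2.3.3 and numpy 2.4.6 in Python 3.11.15.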

Additional observations from a re-analysis of the deposited data

How the results depend on the processing

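The count of 617 genes that fell stayed between 421 and 636 under every alternative other than the thresholds, and the count of 100 that rose was more sensitive. It was 27 with 10 added to each count, 168 with totals made equal, 151 with the upper quartile, 31 with at least 100 counts and 157 with no minimum count. At a threshold of 1 log2 unit 702 genes were higher and 1739 lower, and at 3 log2 units 17 and 393. With at least 10 counts in both conditions, an alternative chosen after seeing the data, 41 were higher. Of the 617 genes that fell, 547 also did so with totals made equal and 569 with the upper quartile. Of 20 lists with a median past 2 log2 units, all kept its sign in the 159 alternative values that could be computed, and 149 of these stayed past it. The 10 others belong to the exocrine pancreas, lymphocytes, the Serpina1 and Serpina3 genes and the Akr1c genes. Of 140 named genes past the threshold, all kept their sign, and 22 fell short of it under at least 1 alternative, all of them with 10 added. Leaving out single libraries and blocking on the replicate number were planned and not run. No paired analysis was possible because the table holds 1 value per condition. With 28 of the 100 genes that rose at 3 or fewer counts in C57.CTL.F1, depth limits the size of those rises.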

Other observations

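Of the 617 genes that fell, 413 were in none of the lists by tissue or function, and further families were described after their values were seen. For comparison, 3.61% of all genes tested fell and 0.584% rose. UDP-glucuronosyltransferases fell in 12 of 16 tested cases (median -5.01, or -3.85 with no minimum count), with Ugt2b5 going from 2085 to 15.6 (log2 ratio -6.97). Carboxylesterases fell in 9 of 14 (median -4.03, or -2.44 with no minimum count and -3.00 with 10 added). Ces5a, a member known from the epididymis, had 14838 and 23486 counts (log2 ratio 0.66). Sulfotransferases fell in 3 of 9 (median 0.21), with Sult2a8 going from 3507 to 41.5 (log2 ratio -6.37), and Akr1c genes in 3 of 6 (-3.37, or -1.09 with no minimum count), with Akr1c6 going from 4489 to 41.8 (log2 ratio -6.71) and Akr1c19 at 2090.3 and 2179 counts (log2 ratio 0.06). Glutathione S-transferases fell in 4 of 18 (median -0.72) with the values as deposited and in 1 with equal totals. Transporters of the Slc22 family fell in 5 of 15 (median -0.57, or -1.58 with at least 100 counts). With equal totals 4 of this family fell and 1 rose.

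The heavy chains of inter-alpha-trypsin inhibitor fell in 4 of 5 cases (median -5.00), and Itih5, which is made outside the liver, had 737 and 1403 counts (log2 ratio 0.93). All 4 serum amyloid A genes fell (median -5.73). Saa1 and Saa2, acute-phase genes that are close copies, went from 1092 to 10.7 (log2 ratio -6.55) and from 1304 to 4.73 (log2 ratio -7.83), and both had under 30 counts in C57.D300.F1. Of 23 tested chemokine genes 2 fell, where 3.61% of all genes tested did. They were Cxcl1 (343 to 5.09 counts) and Cxcl2 (453 to 19.3), with a list median of -0.13, or 0.16 with equal totals. Cxcl1 had 17.3 counts in C57.D300.F1. Saa1, Saa2 and Cxcl1 were thus high in C57.CTL.F1 alone.

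Lymphocyte genes fell in 8 of 14 tested cases (median -2.23), or in 5 with equal totals (median -1.95), with Cd79b going from 135 to 15.9 (log2 ratio -3.01). The share that fell was 3.61% over all genes tested. Genes known from B cells and from T cells were found both among the 8 that fell (Cd79b and Cd2, log2 ratios of -3.01 and -2.93) and among the 6 that did not (Cd22 and Lck, -0.96 and -0.02). Striated muscle genes rose in 5 of 28 (median 0.49), where 0.584% of all genes tested did. The 5 were Myh1, Myh7, Myl2, Lmod2 and Lmod3, of which only Myh1 reached 100 counts, going from 77.4 to 413 (log2 ratio 2.40). Myl2, Lmod2 and Lmod3 reached the minimum count in C57.D300.F2 only, and Lmod3 fell short of the threshold with 10 added (1.02) and with values under 3 counts set to 3 (1.89). In the same list 6 genes lay below 0, among them Actc1 (-1.53) and Myh4 (-0.72). Ttn, the most abundant gene of that list, had 6874 and 9293 counts (log2 ratio 0.44) and 15426 counts in C57.D300.F1. Of 11 tested vomeronasal receptor genes 2 rose (median 0.15), where 0.584% of all genes tested did. Both, Vmn2r98 and Vmn1r12, fell short of the threshold with 10 added (1.53 and 1.95). The median was 0.78 with equal totals and 0.93 with at least 100 counts. Of 68 potassium channel genes 2 rose, Kcnj16 and Kcnk18 (median 0.27).

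By chromosome, the share of genes that fell was lowest on the X chromosome, 1.80% of 556, and highest on chromosome 19, 5.72% of 559, leaving aside the Y chromosome with 6 genes tested. The median log2 ratio on the X chromosome was 0.15. Chromosome 3 had no gene that rose among 821 tested. By annotated class, 559 of 15094 protein-coding genes fell (3.70%) and 78 rose (0.517%), near the shares of all genes. Among 370 lincRNA genes 7 rose (1.89%) and 5 fell (1.35%), with a median of 0.30.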
